A study of Xenopus tropicalis with 9 samples.

Results

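A group of 10 transcription regulators of the embryonic skin was followed across all libraries: *tp63*, the Grainyhead-like genes *grhl1*, *grhl2* and *grhl3*, *foxi1*, *ubp1*, *mcidas*, *gmnc*, *rfx2* and *myb*. They were chosen by name for their known roles, though with earlier results of these data known. All 10 were found among the 23633 genes of the table. RNA-seq had been carried out on whole *Xenopus tropicalis* neurulae of the Nigerian strain at stage 14, with 3 libraries in each of 3 groups and 9 libraries in total. Fgf4 overexpressing embryos had received 5 pg of Cska-Fgf4 plasmid, in which a cytoskeletal actin promoter drives *fgf4* once zygotic transcription has begun. Cic knockdown embryos had received 1 ng of each mRNA of a TALEN pair that cuts the *cic* exon encoding the HMG box DNA binding domain. These are F0 embryos, so each one carries a mixture of lesions and the fraction of intact *cic* differs from cell to cell. Control embryos had been injected with water. All embryos were cultured at 23 degrees, and libraries with the same replicate number were treated as 1 batch of embryos, after the study's methods.

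The frog embryonic epidermis is a mucociliary epithelium. Its inner layer holds basal progenitors marked by p63, and from this layer ionocytes, multiciliated cells and small secretory cells intercalate into the outer layer of goblet cells. Foxi1 is needed for ionocytes, while the geminin relatives Mcidas and Gmnc start the multiciliated programme that Rfx2 and Myb help to carry out. Grainyhead-like factors control epithelial adhesion and barrier genes.

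Expression is given as TPM (transcripts scaled to transcript length and to the size of the library), so that levels of different genes can be compared. The table holds no read counts, so no counting interval was set on these values. The 9 libraries summed to between 871757 and 1162165 TPM, and between 3459 and 4864 genes were listed at 0. Transcripts of *fgf4*, the injected ligand gene, stood at 1692, 168 and 95.4 TPM in Fgf4 overexpressing replicates 1, 2 and 3, against at most 4.07 TPM in control embryos. The 3 Fgf4 libraries therefore differ widely in the level of the transgene product. Transcripts of *cic* were at 11.8 to 14.7 TPM in Cic knockdown embryos and 13.4 to 14.7 TPM in control embryos, so RNA level is no check of this knockdown. One marker each of epidermis (*krt*), ionocytes (*ca12*), multiciliated cells (*ccno*), neural plate (*sox2*) and maternal RNA (*zar1*) was above 0 in every library. The erythroid factor *gata1* was at 0 in 7 of 9. The other blood and myeloid markers, *tal1*, *spib* and *mpo*, were above 0 in every library. They reached 19.4, 44.0 and 85.3 TPM in control embryos. Benjamini-Hochberg adjusted limma p-values reached 0.05 for 0 genes in each of the 3 comparisons. The numbers of genes at an unadjusted p under 0.05 were 1784 for Fgf4 overexpression against control, 2335 for Cic knockdown against control and 1843 for Cic knockdown against Fgf4 overexpression. Without the replicate block, adjusted values reached 0.05 for 1, 6 and 0 genes in these comparisons. A gene is called below at an unadjusted limma p of at most 0.01 and a change of at least 0.81 on the log2 scale in either direction. The study set the same fold limit, but on effect sizes from its Sleuth model and not on TPM. For most genes it listed as lowered by both treatments, those effect sizes were less extreme than the ratios of its mean TPM. The limit used here is therefore looser than that of the study for such genes.

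In control embryos the Grainyhead-like genes headed the order of mean levels, with *grhl3* at 199 ± 53.8 TPM and *grhl1* at 121 ± 36.6 TPM (SD, n = 3). Next came *tp63* (91.4 ± 15.9 TPM), *foxi1* (85.3 ± 24.2 TPM), *rfx2* (69.9 ± 26.7 TPM), *ubp1* (62.4 ± 25.0 TPM) and *mcidas* (38.1 ± 13.2 TPM). From *grhl3* to *mcidas*, every gene overlapped its neighbour in this order. Lower and separate from one another were *grhl2* at 18.3 ± 4.51 TPM, *myb* at 6.32 ± 1.91 TPM and *gmnc* at 0.381 ± 0.424 TPM. In Fgf4 overexpressing embryos all neighbours in the order overlapped, since the same gene differed so much between libraries. In Cic knockdown embryos *grhl3* (243 ± 40.5 TPM) stood clear of *grhl1* (132 ± 25.2 TPM), and *grhl2*, *myb* and *gmnc* were again separate from each other.

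**Figure D1:**
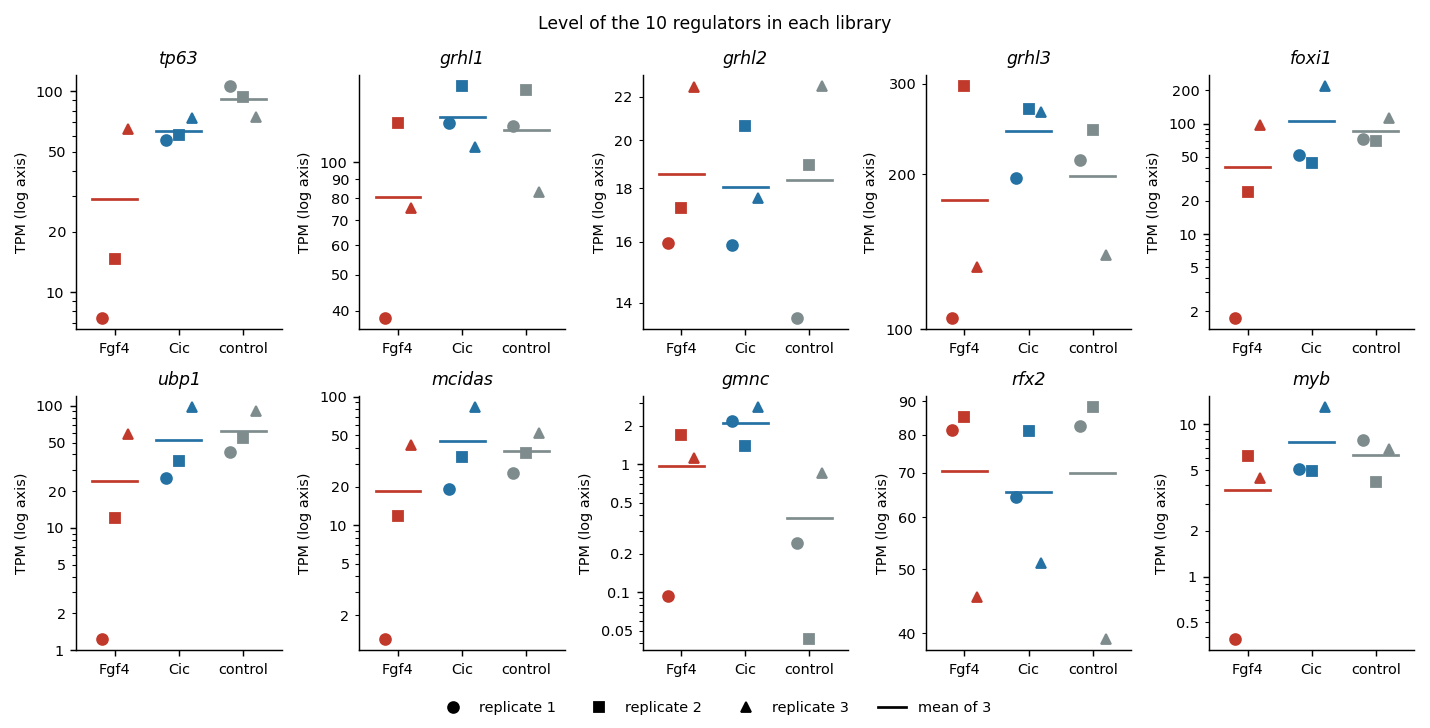
Level of each regulator in TPM (log axis, with its own range in each panel) in Fgf4 overexpressing, Cic knockdown and water control embryos. Each point is 1 library, with its shape giving the replicate number, and bars are means of 3. For *foxi1*, *ubp1*, *mcidas* and *tp63*, Fgf4 replicate 1 is the lowest of the 9 libraries, Fgf4 replicate 2 is the next lowest, and Fgf4 replicate 3 is close to the controls, whereas *grhl2* and *rfx2* show no such spread.

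The first question was how far the skin regulators are altered when Fgf4 is overexpressed. Of the 9 regulators that passed the filter of 1.5 TPM, *tp63* and *ubp1* fell, 0 rose and 7 were not called. Downward calls made up 1.16% of the 13437 genes tested and upward calls 1.4%. The regulators *tp63*, *grhl1*, *foxi1*, *ubp1* and *mcidas*, thus 5 of 9, were lower than the same-numbered control in all 3 pairs, a pattern that 19.3% of all genes tested showed. The median log2 fold change of the 9 regulators was -1.10, beside 0.01 for all genes tested. An unadjusted limma p under 0.05 was found for 4 of 9 (*tp63*, *ubp1*, *mcidas* and *foxi1*), beside 1784 of the 13437 genes tested. In whole embryos, fewer cells of a type and less RNA per cell cannot be told apart.

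Transcripts of *tp63*, which encodes the p53 family factor that maintains basal epidermal progenitors, were at 7.45, 14.6 and 64.6 TPM in Fgf4 replicates 1, 2 and 3, against 106, 93.7 and 74.6 TPM in control replicates 1, 2 and 3. The groups did not overlap, and *tp63* was the only 1 of the 9 regulators of which this was true (3.25% of all genes tested were lower without overlap). Relative to the same-numbered control, the level was 7.02%, 15.6% and 86.7%, so the third pair hardly differed. On the log2(TPM + 0.5) scale the change was -2.20 ± 0.58 (SE; 95% interval -3.56 to -0.83; limma adjusted p = 0.300). The call rested on several libraries. It was lost without Fgf4 replicate 1 (-1.52), Fgf4 replicate 2 (-2.0), control replicate 1 (-1.72) or control replicate 2 (-2.06). Leaving out a Cic knockdown library, which enters only the estimate of spread, also ended it (replicate 1 or replicate 3), as did leaving out replicate number 1 (-1.42) or 2 (-1.97). The call was made again in 4 of the 12 fits with 1 library or 1 replicate number left out. Over all genes tested, downward calls made up 0.295% and 0.35% without Fgf4 replicate 1 or 2. They made up 0.202% and 0.479% without control replicate 1 or 2, and 0.662% and 1.22% without Cic knockdown replicate 1 or 3. Without replicate number 1 or 2 they made up 0.134% and 0.289%.

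A CP2 family factor that acts in ionocyte formation in the *Xenopus* epidermis is encoded by *ubp1*. Its transcripts stood at 1.24, 12.06 and 59.2 TPM in Fgf4 replicates 1, 2 and 3, against 42.1, 54.7 and 90.4 TPM in control replicates 1, 2 and 3. The Fgf4 libraries held 2.94%, 22.0% and 65.4% of the same-numbered control, although the groups overlap through Fgf4 replicate 3. The change was -2.45 ± 0.67 (SE; 95% interval -4.02 to -0.89; limma adjusted p = 0.300). Without the replicate block *ubp1* was not called. It was also not called without control replicate 1 (-1.84), control replicate 2 (-2.48), Fgf4 replicate 2 (-2.66), Cic knockdown replicate 1, Cic knockdown replicate 3, or replicate number 1 (-1.37) or 2 (-2.61). Without Fgf4 replicate 1, the library with the most *fgf4*, it was still called, but the change was smaller (-1.45). The shares of all genes called downward in these leave-out fits are those given for *tp63*.

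The forkhead factor gene *foxi1*, listed also as FoxI1e in RefSeq, specifies ionocytes and earlier acts in ectoderm formation in *Xenopus*. Its level was 1.76, 24.3 and 96.8 TPM in Fgf4 replicates 1, 2 and 3, against 72.3, 70.4 and 113 TPM in control replicates 1, 2 and 3. In Fgf4 replicate 1 this was 2.43% of the same-numbered control, the smallest fraction of any regulator, but in replicates 2 and 3 it was 34.5% and 85.5%. The change of -2.25 ± 0.83 (SE; 95% interval -4.20 to -0.30) was not called (limma adjusted p = 0.343). It rested largely on Fgf4 replicate 1, without which it was -0.97, and it was -0.87 without replicate number 1 and -1.46 without control replicate 1.

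The same arrangement was seen for *mcidas*, whose product multicilin turns on the multiciliated programme. It was at 1.31, 11.7 and 41.9 TPM in Fgf4 replicates 1, 2 and 3, against 25.6, 36.7 and 52.0 TPM in control replicates 1, 2 and 3, or 5.11%, 32.0% and 80.6% of the same-numbered control. The change was -1.92 ± 0.58 (SE; 95% interval -3.27 to -0.57; limma adjusted p = 0.312), just past the limit for a call. It was called without control replicate 3 (-2.48), without Fgf4 replicate 3 (-2.57) and without replicate number 3 (-2.73). In these fits 1.16%, 6.11% and 4.31% of all genes tested were called downward, in the same order. A call was also made with a pseudocount of 1 or median-of-ratios scaling. Without Fgf4 replicate 1 the change was -1.07, without control replicate 1 it was -1.32 and without replicate number 1 it was -0.96.

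The other multiciliated cell regulators did not share this arrangement. *rfx2*, a regulatory factor X gene that drives ciliary genes, stood at 81.3, 85.2 and 45.3 TPM in Fgf4 replicates 1, 2 and 3, against 82.5, 88.1 and 39.2 TPM in control replicates 1, 2 and 3. Its change was 0.05 ± 0.16 (SE), with a 95% interval of -0.34 to 0.43. *myb*, which acts in multiciliated cells and in blood progenitors, was at 0.390 TPM in Fgf4 replicate 1 but at 6.20 and 4.47 TPM in replicates 2 and 3, against 7.87, 4.19 and 6.90 TPM in control replicates 1, 2 and 3. Only Fgf4 replicate 1 lay outside the control range, and the change was -1.10 ± 0.65 (SE; limma adjusted p = 0.503). Without replicate number 1 it was -0.03. *gmnc*, which acts upstream of multicilin, was at 0.0928, 1.70 and 1.11 TPM in Fgf4 embryos and at 0.242, 0.0433 and 0.857 TPM in control embryos. It was below the filter in both groups and was not tested in this comparison.

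Among the Grainyhead-like genes, *grhl1* was at 38.4, 128 and 75.4 TPM in Fgf4 replicates 1, 2 and 3, against 125, 156 and 83.4 TPM in control replicates 1, 2 and 3. It was below the same-numbered control in each pair, at 30.8%, 81.6% and 90.5%, and its change of -0.71 ± 0.31 (SE; 95% interval -1.42 to 0.01) was not called (limma adjusted p = 0.382) and was -0.25 without Fgf4 replicate 1. *grhl3*, the most abundant of the 10, was at 105, 297 and 132 TPM in Fgf4 embryos and 213, 244 and 139 TPM in control embryos, with a change of -0.27 (95% interval -0.94 to 0.40). *grhl2* was at 16.0, 17.2 and 22.5 TPM in Fgf4 embryos and 13.6, 18.9 and 22.5 TPM in control embryos. Its change was 0.03, with a 95% interval of -0.38 to 0.44.

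Across the 3 Fgf4 libraries, the depth of these decreases ran beside the amount of *fgf4* RNA. In 5 of 10 regulators the ratio to the same-numbered control was lowest in replicate 1 (1692 TPM of *fgf4*), then in replicate 2 (168 TPM) and then in replicate 3 (95.4 TPM), an ordering that 18.7% of the 13833 genes in the fit also had. Fgf4 replicate 1 was the lowest of the 9 libraries for 7 of 10 regulators, beside 13.6% of the genes in the fit. Both patterns were looked for after the values had been seen, and with 3 libraries of different embryo batches, the part of *fgf4* level in them was not tested.

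The second question was whether Cic knockdown, which lowers the function of a repressor that Erk signalling inactivates, alters the same regulators. None was called (0 of 10), whereas 3.99% of the 13598 genes tested were called upward and 0.75% downward. At an unadjusted limma p under 0.05 stood 1 of 10 regulators, *gmnc*, beside 2335 of the 13598 genes tested. The median log2 fold change of the 10 regulators was 0.02, beside -0.02 for all genes tested.

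*gmnc* was at 2.17, 1.38 and 2.79 TPM in Cic knockdown replicates 1, 2 and 3, against 0.242, 0.0433 and 0.857 TPM in control replicates 1, 2 and 3. All 3 knockdown libraries were above all 3 controls (9.16% of all genes tested were higher without overlap), and the change was 1.64 ± 0.52 (SE; 95% interval 0.43 to 2.85; limma adjusted p = 0.189). It passed the filter only through the knockdown group, in which it is high, and its levels are low throughout. At such levels the size of the change follows the pseudocount, with 2.57 at a pseudocount of 0.1 and 1.19 at 1. It was called when only the 6 libraries of the comparison were fitted and when Fgf4 replicate 1 or Fgf4 replicate 2 was left out of the estimate of spread. Without Fgf4 replicate 1 or Fgf4 replicate 2, upward calls made up 4.35% and 4.63% of all genes tested.

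Because whole embryos also hold maternal RNA, a list of 30 oocyte and maternal genes was read beside it, of which 27 were in the table. In Cic knockdown embryos 16 of 27 tested rose and 0 fell, with a median of 1.61, beside 3.99% of all genes tested called upward. The 16 were *zar1l*, *dazl*, *velo1*, *gdf1*, *nanos1*, *ddx25*, *dnd1*, *mos*, *btg4*, *cpeb1*, *wee2*, *sybu*, *grip2*, *h1foo*, *bmp15* and *gdf9*, with changes between 0.97 and 3.94. Of these, *gdf1*, *btg4*, *cpeb1*, *grip2*, *bmp15* and *gdf9* had control means of only 0.05 to 0.98 TPM. They passed the filter only through the knockdown group, in which they are high, so their calls and their part in the median carry that limit. The summed level of the list was 1076 to 1313 TPM in Cic knockdown embryos, 460.0 to 1643 TPM in Fgf4 overexpressing embryos and 438 to 806 TPM in control embryos. Its most abundant genes in control embryos, *kpna7* and *ddx4*, were not called (0.34 and -0.05). Any part of this RNA in the level of *gmnc* was not tested.

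*tp63* was at 57.4, 60.6 and 73.3 TPM in Cic knockdown replicates 1, 2 and 3, against 106, 93.7 and 74.6 TPM in control replicates 1, 2 and 3. All knockdown values lay below all controls (5.18% of all genes tested were lower without overlap), at 54.1%, 64.7% and 98.3% of the same-numbered control. The third pair differed by almost nothing, and the change of -0.51 had a 95% interval of -1.88 to 0.86 (limma adjusted p = 0.677). Thus 2 of 10 regulators, *gmnc* and *tp63*, had groups that did not overlap.

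Being lower in each of the 3 pairs held for 1 of 10 regulators, *tp63*, and for 25.3% of all genes tested. Being higher in each held for 2 of 10, *gmnc* and *grhl1*, and for 23.4% of all genes tested, although *grhl1* was at only 102% of control in replicates 1 and 2. These shares are no greater than those among all genes.

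The ionocyte and multiciliated cell regulators split by replicate number rather than by knockdown. *foxi1* was at 52.4, 44.0 and 219 TPM in Cic knockdown replicates 1, 2 and 3, thus 72.5%, 62.5% and 193% of the same-numbered control, with a change of -0.06 (95% interval -2.01 to 1.89). *ubp1* was at 25.6, 35.5 and 97.3 TPM, or 60.8%, 64.8% and 108% of control, with a change of -0.41 (95% interval -1.97 to 1.16). *mcidas* was at 19.1, 33.7 and 82.7 TPM, or 74.7%, 91.9% and 159% of control, with a change of 0.04 (95% interval -1.31 to 1.40). The intervals are wide, and that of *foxi1* leaves room for a change of almost 2 on the log2 scale in either direction.

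The remaining regulators had fitted changes between -0.03 and 0.32. In Cic knockdown replicate 3, however, *grhl3* was at 190% and *myb* at 188% of the same-numbered control. *rfx2* was at 64.4, 81.1 and 51.1 TPM in Cic knockdown embryos, with a change of -0.03 (95% interval -0.41 to 0.35). *myb* was at 5.12, 4.92 and 13.0 TPM, with a change of 0.17 (95% interval -1.36 to 1.69). *grhl1* was at 127, 160 and 110 TPM and *grhl3* at 196, 268 and 264 TPM, with changes of 0.15 and 0.32 (limma adjusted p = 0.826 and 0.594). *grhl2* was at 15.9, 20.6 and 17.6 TPM, and its change had a 95% interval of -0.41 to 0.41.

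The third comparison set both treatments against each other directly. In the fit on all libraries the controls do not enter its estimated differences, but they do enter the estimate of spread. None of 10 regulators was called (0 up and 0 down), beside 1.76% of the 13607 genes tested called upward and 0.375% downward. The regulators *tp63*, *grhl1*, *foxi1*, *ubp1* and *mcidas*, thus 5 of 10, were higher in Cic knockdown than in Fgf4 overexpressing embryos in all 3 pairs, and 13.2% of all genes tested were. These same 5 had unadjusted limma p-values under 0.05, as did 1843 of the 13607 genes tested. The median over all 10 regulators was 1.13, beside -0.02 for all genes tested.

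The difference of Cic knockdown over Fgf4 overexpression was 1.97 for *mcidas* (95% interval 0.61 to 3.32; limma adjusted p = 0.331) and 2.05 for *ubp1* (adjusted p = 0.331). It was 1.69 for *tp63* (limma adjusted p = 0.334), 0.86 for *grhl1* (adjusted p = 0.336) and 2.19 for *foxi1* (adjusted p = 0.350). For *tp63*, *ubp1* and *mcidas* the difference was smallest in the third pair, and for *grhl1* and *foxi1* in the second. All 5 differences were smaller without Fgf4 replicate 1, at 1.01 for *tp63*, 0.40 for *grhl1*, 0.91 for *foxi1*, 1.04 for *ubp1* and 1.11 for *mcidas*, and none of them was called. Without Fgf4 replicate 3, *tp63* (2.56), *ubp1* (2.84) and *mcidas* (2.62) were called, and without replicate number 3 likewise (2.44, 2.71 and 2.46), but upward calls then also made up 4.72% and 4.48% of all genes tested. Without Fgf4 replicate 2, *myb* (2.06) was called, and so was *gmnc* (1.64), which passed the filter only through the knockdown group, in which it is high. In that fit 3% of all genes tested were called upward. *mcidas* was called without control replicate 1 or control replicate 3, where upward calls made up 1.46% and 1.37% of all genes tested.

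Over the 9 libraries the levels of *foxi1* spanned 125-fold, those of *ubp1* 78.5-fold and those of *mcidas* 63.2-fold, while the ratio of *foxi1* to *ubp1* stayed between 1.24 and 2.25. The ratio of *foxi1* to *mcidas* ranged between 1.31 and 2.82. By comparison *myb* spanned 33.3-fold, *tp63* 14.2-fold, *grhl1* 4.16-fold, *grhl3* 2.82-fold, *rfx2* 2.25-fold and *grhl2* 1.66-fold. The ionocyte pair and *mcidas* thus varied widely and did so together. The levels of *gmnc* were too near 0 in several libraries for such a span to be read.

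Likeness of profiles was measured as the root mean square difference between log2(TPM + 0.5) values, each gene centred on its own mean over the 9 libraries, against 13832 other genes. The gene nearest to *ubp1* was *mcidas* (0.289), followed by *foxi1* (0.318) and the tubulin gene *tuba1a* (0.390). Nearest to *foxi1* was *ubp1*, followed by *mcidas*. For *tp63* the nearest were *odf3* (0.308), which encodes an outer dense fibre protein of sperm tails, *ccdc67* (0.330) and the rootletin-like gene *crocc2* (0.344). These distances share libraries and batches and are given as a description.

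**Figure D2:**
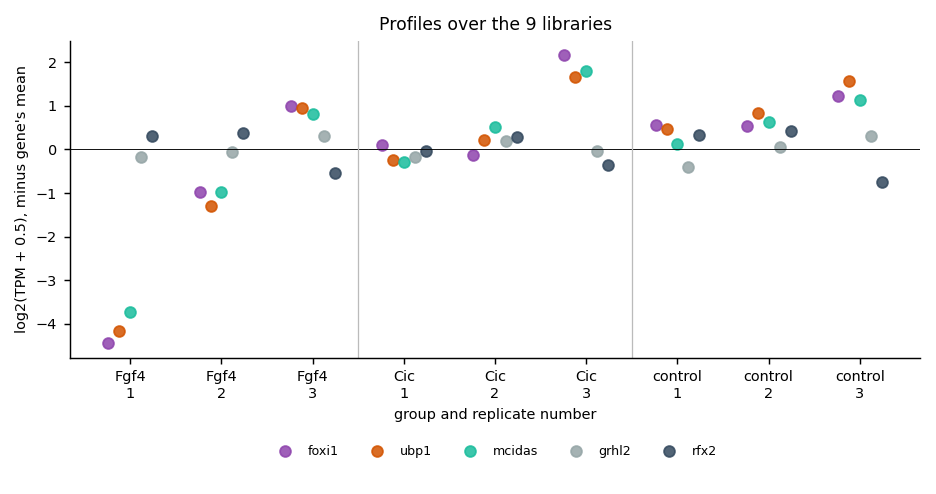
Level of 5 regulators in each library as log2(TPM + 0.5) minus the gene's mean over the 9 libraries, with points of 1 library set side by side. *foxi1*, *ubp1* and *mcidas* lie near one another in each library, from Fgf4 replicate 1 at the bottom to Cic knockdown replicate 3 at the top, while *grhl2* and *rfx2* stay near 0.

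Replicate number moved with these genes in every group. The level of *foxi1* in replicate 3 was 7.43 times the mean of replicates 1 and 2 in Fgf4 embryos, 4.53 times in Cic knockdown embryos and 1.59 times in control embryos. For *ubp1* the ratio was 8.90, 3.18 and 1.87, and for *mcidas* 6.42, 3.13 and 1.67, in the same order of groups. For *rfx2* it was under 1 in all groups, at 0.544, 0.703 and 0.460. Replicate 3 of each group thus held more RNA of *foxi1*, *ubp1* and *mcidas* and less of *rfx2*. In Fgf4 embryos replicate 3 is also the library with the least *fgf4*, and there *tp63* had a ratio of 5.86, against 0.746 in control embryos, so batch and *fgf4* level cannot be told apart in that group.

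The ratio of *tp63* to *grhl3* was 0.0708, 0.0492 and 0.489 in Fgf4 replicates 1, 2 and 3, and 0.292, 0.226 and 0.277 in Cic knockdown replicates 1, 2 and 3. In control replicates 1, 2 and 3 it was 0.499, 0.384 and 0.536. All knockdown ratios lay below all control ratios. With *rfx2* in place of *grhl3* this was not so, the ratio being 0.891, 0.747 and 1.43 in Cic knockdown replicates 1, 2 and 3 and 1.29, 1.06 and 1.90 in control replicates 1, 2 and 3.

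Genes that act with or below the regulators were read from lists, whose counts stand beside 1.16% of all genes called downward and 1.4% upward for Fgf4 overexpression, 0.75% and 3.99% for Cic knockdown, and 0.375% and 1.76% for the direct comparison. Of 20 ionocyte effector genes, 18 were in the table and 14 were tested for Fgf4 overexpression. Of the 14, 2 fell (*atp6v1c2* and *slc26a4*), 0 rose, and 12 of 14 had negative values (48.3% of all genes tested), with a median of -1.63 beside 0.01 for all genes tested. Neither was called without the replicate block or in 7 of the 12 leave-out fits, among them those without Fgf4 replicate 1 (-2.17 for *atp6v1c2* and -2.82 for *slc26a4*), Fgf4 replicate 2, control replicate 1 or control replicate 2. *atp6v1c2*, a subunit gene of the proton pump, was at 0.282, 0.267 and 18.0 TPM in Fgf4 replicates 1, 2 and 3, against 27.4, 9.22 and 25.9 TPM in control replicates 1, 2 and 3 (change -3.11, limma adjusted p = 0.300). *slc26a4*, the anion exchanger pendrin, was at 0.813, 0.301 and 48.8 TPM in Fgf4 embryos, against 75.7, 22.9 and 70.0 TPM in control embryos (change -3.75, limma adjusted p = 0.300). Another pump subunit gene, *atp6v1g3*, was the most abundant of the list in control embryos and was not called (-2.63). As with *foxi1*, the first and second Fgf4 libraries were low and the third was near the controls.

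Summed over the ionocyte list, levels were 64.8 to 435 TPM in Fgf4 embryos, 182 to 335 TPM in Cic knockdown embryos and 175 to 487 TPM in control embryos. In Cic knockdown embryos 0 of 15 tested genes were called and the median was -0.42. Without Fgf4 replicate 1, 0 of 14 were called for Fgf4 overexpression and the median was -0.86, while without replicate number 3, 7 of 14 fell and the median was -2.25. Of all genes tested, 0.295% were called downward in the first of these fits and 4.31% in the second. In the direct comparison 0 of 15 were called, with a median of 0.92.

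Of 24 genes for multiciliated cell regulation and centriole amplification, 23 were matched in the table by symbol or RefSeq synonym. In Fgf4 embryos 2 of 23 fell, *cdc20b* (-1.99), which lies in the multiciliated cell locus of *ccno*, and *foxn4* (-1.23), a forkhead factor of multiciliated cells. The list median was -0.39. *cdc20b* was at 0.465, 2.47 and 13.2 TPM in Fgf4 replicates 1, 2 and 3, against 11.1, 11.7 and 17.0 TPM in control replicates 1, 2 and 3, an order of libraries like that of *mcidas*. In Cic knockdown embryos 1 of 23 fell, *rfx4* (-1.66), known from neural tissue, and the median was -0.03. The *rfx4* call was made in 4 of 12 leave-out fits. In the direct comparison *foxj1.2* (1.12) and *tp73* (1.72) were higher in Cic knockdown than in Fgf4 embryos, 2 of 22 tested. Each of these was called in 7 of 12 leave-out fits. The most abundant genes of the list, *tubb4b* and *gmnn*, are used by many cell types and were not called in Fgf4 embryos (-0.46 and 0.34) or in Cic knockdown embryos (-0.02 and 0.30). For Fgf4 overexpression 0 of 23 were called without Fgf4 replicate 1 (-1.31 for *cdc20b* and -0.85 for *foxn4*), and 4 of 23 fell without replicate number 3. Downward calls made up 0.295% and 4.31% of all genes tested in these fits. Without the replicate block *foxn4* was the only call of this list in the 3 comparisons. Its Fgf4 call was made in only 3 of 12 leave-out fits, and that of *cdc20b* in 4 of 12.

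The unmatched name was *deup1*, the deuterosome gene of centriole amplification, and the table holds its older symbol, *ccdc67*, which RefSeq does not pair with it. *ccdc67* was at 0.429, 1.19 and 6.08 TPM in Fgf4 replicates 1, 2 and 3, against 6.105, 6.37 and 7.64 TPM in control replicates 1, 2 and 3, and it fell (-1.72, limma adjusted p = 0.300). It was at 5.46, 5.00 and 9.47 TPM in Cic knockdown embryos, with a change of -0.06, and it was higher there than in Fgf4 embryos by the direct test (1.66). Counted with the list, it makes 3 of 24 that fell in Fgf4 embryos and 3 of 23 that were higher in Cic knockdown than in Fgf4 embryos. Without Fgf4 replicate 1 the first count was 0 of 24, in a fit where 0.295% of all genes tested were called downward. Without the replicate block *ccdc67* was not called.

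**Figure D3:**
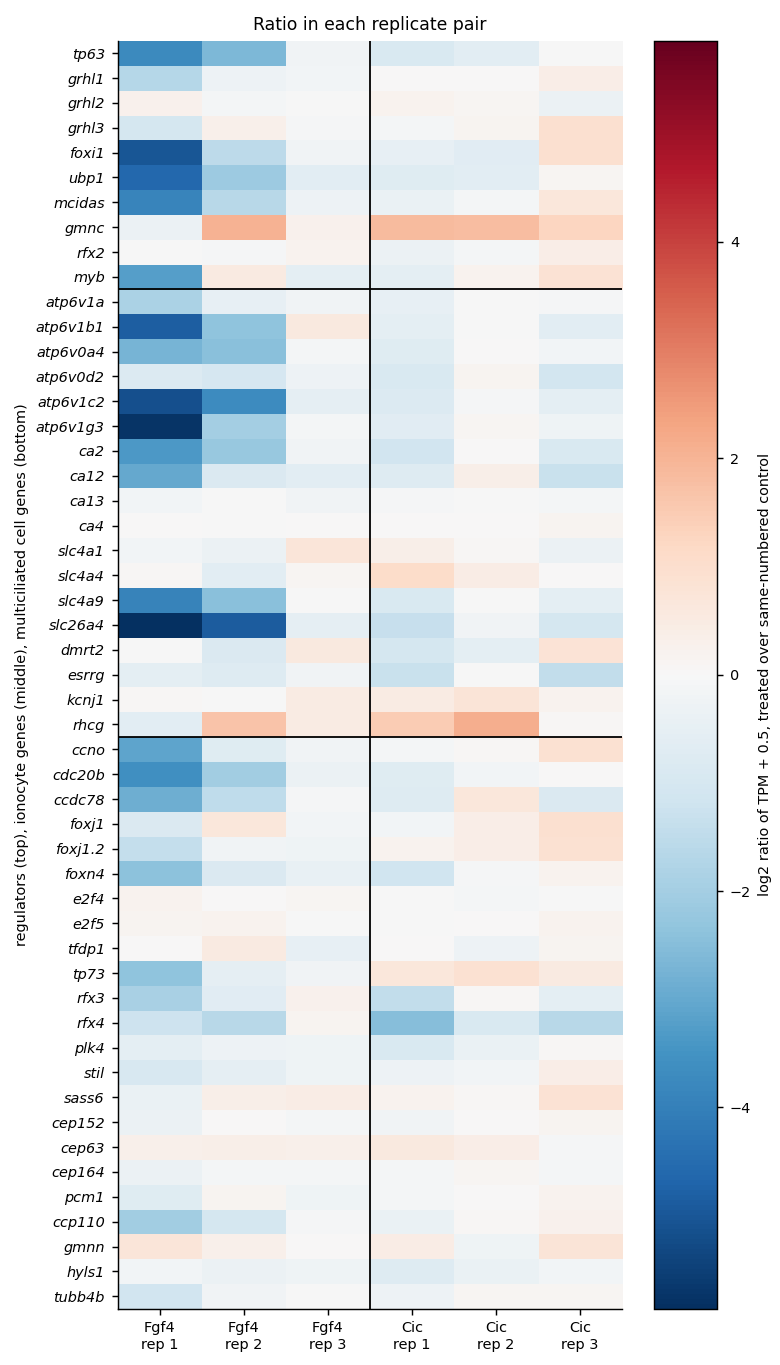
Log2 ratio of TPM + 0.5 over the same-numbered control in each replicate of Fgf4 overexpressing embryos (left 3 columns) and Cic knockdown embryos (right 3 columns). Rows are the 10 regulators, the 18 ionocyte genes and the 23 multiciliated cell genes matched in the table, including those below the filter. For *tp63*, *foxi1*, *ubp1* and *mcidas*, blue in the Fgf4 columns is deepest in replicate 1 and faintest in replicate 3, as for *foxi1* at -5.01, -1.52 and -0.22. Not all rows share this order, since *rfx4* and *dmrt2*, for example, are lower in replicate 2 than in replicate 1.

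Of 18 non-neural ectoderm and epidermal regulators, all in the table, 1 fell in Fgf4 embryos, *foxi4.1* (-1.45), another Foxi gene of the ectoderm. In Cic knockdown embryos *foxi4.1* also fell (-1.31) and *foxi2* rose (1.96). *foxi4.1* was at 1.02, 5.92 and 5.21 TPM in Fgf4 embryos and 2.09, 4.32 and 5.42 TPM in Cic knockdown embryos. Control embryos were at 8.23, 10.7 and 11.1 TPM, so that both treated groups lay below all controls. Of all genes tested, 3.25% were lower without overlap for Fgf4 overexpression and 5.18% for Cic knockdown. The call of *foxi4.1* was made in 9 of 12 leave-out fits for Fgf4 overexpression and in 5 of 12 for Cic knockdown. Neither call was made without control replicate 1 (-1.07 and -0.93), without replicate number 3 or without the replicate block. *foxi2* was at 19.1, 9.30 and 22.3 TPM in Cic knockdown embryos, 1.60, 6.39 and 3.42 TPM in Fgf4 embryos and 4.25, 3.08 and 3.88 TPM in control embryos, and it also was higher in Cic knockdown than in Fgf4 embryos by the direct test (2.09). Its direct call was lost without Fgf4 replicate 1 (1.54), and both calls without Cic knockdown replicate 1 or 3. *foxi2* is maternal in *Xenopus*. The maternal list above had a median of 1.61 in Cic knockdown embryos and 0.60 in Fgf4 embryos, in which *foxi2* was not called. Any part of maternal RNA in the level of *foxi2* was not tested. The abundant ectodermal factors *tfap2c* and *gata2* were not called in Fgf4 embryos (-0.50 and -0.51) or in Cic knockdown embryos (0.26 and -0.16). The list medians were -0.11 for Fgf4 overexpression, 0.23 for Cic knockdown and 0.36 for the direct comparison.

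Of 29 epithelial and basal layer structural genes, many of them known p63 or Grainyhead-like targets, 27 were in the table. In Fgf4 embryos 1 rose and 0 fell among 23 tested, and in Cic knockdown embryos 1 rose and 0 fell among 22 tested. In each case this was the tight junction gene *cldn6.1* (1.23 and 1.28). It was at 457, 1550.1 and 1359.7 TPM in Fgf4 embryos and 722, 1069 and 1379.9 TPM in Cic knockdown embryos, against 179, 601 and 691 TPM in control embryos. Both calls held in all 12 leave-out fits but not without the replicate block. The median was -0.42 for Fgf4 overexpression, 0.01 for Cic knockdown and 0.44 for the direct comparison, in which 0 of 24 were called. The most abundant genes, the keratin gene *krt* (*krt70* in RefSeq) and the epithelial adhesion gene *epcam*, were not called in Fgf4 embryos (-0.42 and 0.17) or in Cic knockdown embryos (-0.10 and 0.65). Without replicate number 3, 6 of 23 genes of this list fell in Fgf4 embryos, in a fit where 4.31% of all genes tested were called downward.

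Blood and neural plate lists were read beside the regulators, since *myb* is also used in blood progenitors and the neural plate is the other part of the ectoderm. Of 15 blood and myeloid genes, 14 were in the table and 7 were tested. Among these, *tal1*, *spib*, *cebpa* and *mpo* fell in Fgf4 embryos (-2.29, -3.73, -2.49 and -3.59), and *spib*, *cebpa* and *mpo* fell in Cic knockdown embryos (-3.20, -1.97 and -4.51). In the direct comparison *lmo2* was lower in Cic knockdown than in Fgf4 embryos (-1.85). It was at 73.3, 42.5 and 42.8 TPM in Cic knockdown embryos, against 775, 63.1 and 130.3 TPM in Fgf4 embryos, and without Fgf4 replicate 1 it was not called (-1.10). The medians were -2.29 for Fgf4 overexpression, -1.37 for Cic knockdown and 0.52 for the direct comparison. The part of blood progenitors in the level of *myb* was not tested.

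Of 13 neural plate genes, 12 were in the table and tested. Among these, *pax6* fell in Fgf4 embryos (-2.58), and *sox2*, *sox3* and *pax6* fell in Cic knockdown embryos (-1.13, -1.06 and -2.38). The knockdown calls were made in 12, 5 and 8 of 12 leave-out fits, in the same order of genes. The medians were -0.67 for Fgf4 overexpression, -0.77 for Cic knockdown and -0.08 for the direct comparison. By the direct test *sox2* was lower in Cic knockdown than in Fgf4 embryos (-0.81). Without Fgf4 replicate 1 neither *pax6* in Fgf4 embryos (-2.42) nor *sox2* in the direct test (-0.70) was called. Summed levels of this list were 745 to 963 TPM in Fgf4 embryos and 519 to 823 TPM in Cic knockdown embryos. In control embryos they were 1150 to 1208 TPM, so the sum was below the controls in every treated library. This did not hold for every gene. *dll1* was at 190, 139 and 127 TPM in Fgf4 replicates 1, 2 and 3, against 87.2, 113 and 107 TPM in same-numbered controls. In Fgf4 embryos 11 of 12 genes of the list had negative changes.

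**Figure D4:**
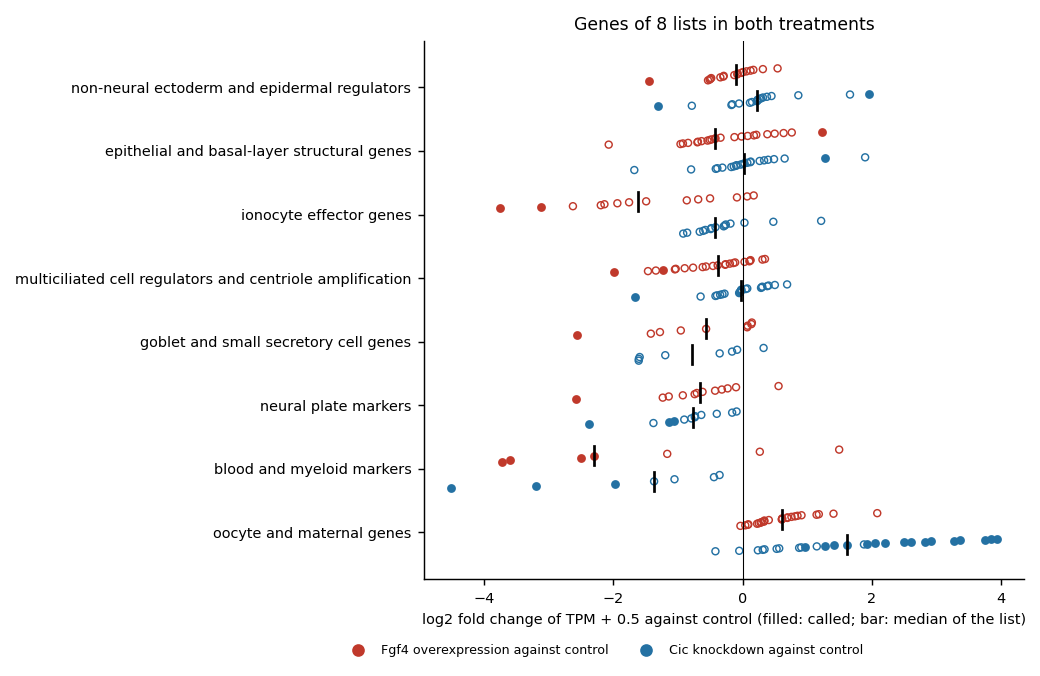
Log2 fold change of TPM + 0.5 against control for the tested genes of 8 lists, with Fgf4 overexpression above Cic knockdown in each list. Filled points are called and black bars are list medians, which for the ionocyte list are -1.63 under Fgf4 overexpression and -0.42 under Cic knockdown, and for the maternal list 0.60 and 1.61.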

How the data were processed

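The authors prepared strand-specific libraries, trimmed the reads with cutadapt, quantified them with Salmon against version 9.1 of the *X. tropicalis* genome and aggregated transcripts by gene in Sleuth (tool versions are not given in the sources used here). The deposited signal values are TPM that the authors rescaled between libraries. The authors' columns of group means were not used. Genes with a mean of at least 1.5 TPM in a group of the comparison were tested by limma 3.58.1 in R 4.3.3 (lmFit, eBayes with trend, two-sided) on log2(TPM + 0.5) over all 9 libraries, with group and replicate number as terms, which understates changes of low genes. P-values were adjusted by the Benjamini-Hochberg method over all genes tested.

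The replicate number stands for the embryo batch in the study's model, and deviations of same-numbered libraries had correlations of 0.38 to 0.79 over 9 pairs. The labels do not say how embryos were pooled, so p-values measure the spread between these libraries. The regulators, gene lists and tests were chosen with earlier results of these data known. All regulators were named, and from the lists each called gene and the 2 most abundant in control embryos. Alternatives were other pseudocounts, filters and scalings, no replicate block, only the 6 libraries compared, and each library or replicate number left out. Of the names, 19345 of 23633 matched RefSeq symbols. Sequences were not analysed here.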

Additional observations from a re-analysis of the deposited data

Results flagged for a closer look

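One regulator differed between treatments in the sign of every pair. *grhl1* was below the same-numbered control in all 3 Fgf4 pairs and above it in all 3 Cic knockdown pairs, and the direct difference of Cic knockdown over Fgf4 overexpression was 0.86 on the log2 scale (limma adjusted p = 0.336). It was not called. A pattern of this direction was seen in 0.803% of the 13202 genes tested in both comparisons. In Cic knockdown replicates 1 and 2 the level was at only 102% of the same-numbered control, and the Cic knockdown change of 0.15 was -0.05 without control replicate 3 and -0.03 without Cic knockdown replicate 1. The direct difference was 0.40 without Fgf4 replicate 1.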

How the results depend on the processing

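For Fgf4 overexpression against control, 2 regulators were called. Without the replicate block this was 1 (*tp63*), beside 0.461% of all genes tested called downward. With only the 6 libraries of the comparison it was 0, and at an adjusted p of at most 0.05 it was 0. With 1 library or replicate number left out it was between 0 and 3. In those fits, 0.134% to 6.11% of all genes tested were called downward. For Cic knockdown against control, 0 were called, 1 (*gmnc*) with only the 6 libraries, and between 0 and 1 in the leave-out fits. Upward calls made up 1.57% to 5.65% of all genes tested in the leave-out fits. For the direct comparison, 0 were called, 1 (*mcidas*) with a pseudocount of 1, with median-of-ratios scaling or with only the 6 libraries, and between 0 and 3 in the leave-out fits. There, 0.243% to 4.72% of all genes tested were called upward in the leave-out fits. The replicate block changed no other call of a regulator. No called value changed sign. Values near 0 did so with the scaling, as for Cic knockdown against control with *foxi1* and *rfx2* (0.03 and 0.06 with every library at the same total) and *mcidas* (-0.02 with median-of-ratios scaling). Over all genes, calls with and without the block numbered 344 and 121 for Fgf4 overexpression, 645 and 371 for Cic knockdown, and 290 and 143 for the direct comparison. Scaling every library to the same total TPM moved the median of all genes in the direct comparison to 0.11 from -0.02, and the differences of *grhl2* and *rfx2* there to 0.09 and 0.05. Of the calls of single list genes, 3 of 12 for Fgf4 overexpression, 11 of 26 for Cic knockdown and 1 of 14 for the direct comparison were made in all 12 leave-out fits, and without the replicate block 6 of 12, 19 of 26 and 8 of 14 were made. The list counts without Fgf4 replicate 1 and without replicate number 1 or 3 were chosen after seeing the data, as were the leave-out fits of single list genes and the count with *ccdc67*. With 3 libraries a group and no read counts, the low values of *gmnc* and *myb* are the least certain.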

Other observations

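Goblet and small secretory cells complete the mucociliary epidermis. Of 13 of their genes, 12 were in the table. In Fgf4 embryos 1 of 9 tested fell, *agr2* (-2.56, limma adjusted p = 0.287), which encodes a protein disulphide isomerase of mucus-secreting cells and of the cement gland. It was at 64.9, 21.0 and 252 TPM in Fgf4 replicates 1, 2 and 3 and at 118, 142 and 152 TPM in Cic knockdown replicates 1, 2 and 3, against 596, 187 and 650 TPM in control replicates 1, 2 and 3. The knockdown libraries lay below all controls (5.18% of all genes tested were lower without overlap), with a change of -1.61 that was not called. The mucin-like gene *otog* was not called in Fgf4 embryos (-0.96) or in Cic knockdown embryos (-0.16). *spdef*, a secretory cell factor, was higher in Cic knockdown than in Fgf4 embryos by the direct test (0.89). That call was made in 3 of 12 leave-out fits and not without the replicate block. The list medians were -0.57 for Fgf4 overexpression, -0.78 for Cic knockdown and 0.18 for the direct comparison. Without Fgf4 replicate 1, 0 of 8 genes were called for Fgf4 overexpression, in a fit where 0.295% of all genes tested were called downward.

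For the maternal list, 0 of 25 genes were called for Fgf4 overexpression (median 0.60). An unadjusted limma p under 0.05 was found for 5 of 25, beside 1784 of the 13437 genes tested. In the direct comparison 8 of 27 were higher in Cic knockdown than in Fgf4 embryos, namely *zar1l*, *velo1*, *gdf1*, *mos*, *btg4*, *cpeb1*, *wee2* and *h1foo*. Without replicate number 1, the count of maternal genes that rose in Cic knockdown embryos was 7 of 27, and without replicate number 3 it was 10 of 26. The fit on all libraries gave 16 of 27, among them genes that passed the filter only through the knockdown group. Upward calls over all genes tested made up 1.57%, 2.85% and 3.99% in these fits, in the same order. The list medians were 1.45, 1.46 and 1.61.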
